A study of Mus musculus with 12 samples.

Results

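Actb, which encodes β-actin, and Tuba1b, which encodes an α-tubulin, were followed through the left ventricles (LVs) of 12 mice, 1 array per mouse. Both are printed as housekeeping probes on the array, in 20 spots each, and they are 2 of the 60915 probes measured. Actb was selected on its measured levels, which moved in opposite directions after isoproterenol (ISO) in the 2 genotypes, and Tuba1b was added, with its values also in view, as the other cytoskeletal gene among the 15 housekeeping probes that could be named. Their differences between groups are therefore given as descriptions, with a standard error and no test.

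The mice were C57BL/6J, and all 12 carried GRK-beta1AR, a mutant β1-adrenergic receptor without the sites that G protein-coupled receptor kinases phosphorylate. Per the study's methods it is overexpressed in the heart only, where β-arrestin signaling through the receptor is lost. In mice called TG it was the sole transgene. Double transgenic mice (DTG), labelled GRK-beta1AR/miR150, also carried miR-150 under a CAG promoter, which is active in most cell types. Each genotype received vehicle or ISO, a β-adrenergic agonist, for 1 week, which gave 4 groups of 3 mice each, named by genotype and treatment. No group lacked the receptor transgene, so what the receptor itself does to either gene cannot be told apart from the rest. The labelled ages ran from 9 to 12 weeks, and 1 mouse of each group was labelled female.

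β-actin polymerizes into the microfilaments of the cell cortex and of moving cells, while the sarcomere of a cardiomyocyte is built from its own muscle actins. α-tubulin pairs with β-tubulin to form microtubules, which carry cargo and stiffen cardiomyocytes under load. Both transcripts are made in nearly all cell types, are abundant in fibroblasts and endothelial cells, and are widely used as reference genes on the premise that their levels hold steady between conditions. An LV sample mixes all of these cells, and fewer cells of a type and less RNA per cell cannot be told apart in it.

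Levels are given as the log2 of the spot signal minus the 75th percentile of the same array, so that each unit is a doubling of signal. They compare arrays for 1 probe and say nothing about which of the 2 genes is more abundant. The 75th percentile itself ran from 244 to 540 signal units over the 12 arrays. The arrays fell into 3 scans: scan 1 took in DTG vehicle 3 with DTG ISO 1, 2 and 3, scan 3 held TG vehicle 3 and TG ISO 3, and scan 2 held the other 6. The difference between a pair of control probes named for Gapdh was 0.33 to 0.57 (log2) on the 4 arrays of scan 1 and 0.91 to 1.33 on the other 8. The tissue label could not be checked against markers of heart cells, because the files pair only the housekeeping probes with transcripts.

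The promoter of Tuba1b is shown because the report turns on a gene that is taken to be steadily transcribed. The 250 bases before its transcription start lie at chr15:98934391-98934640 on the minus strand (RefSeq, GRCm38.p6) and are written 5′ to 3′, with matches to the GC box GGGCGG, on either strand, in capitals. The table of promoters held no entry for Actb.
Tuba1b promoter: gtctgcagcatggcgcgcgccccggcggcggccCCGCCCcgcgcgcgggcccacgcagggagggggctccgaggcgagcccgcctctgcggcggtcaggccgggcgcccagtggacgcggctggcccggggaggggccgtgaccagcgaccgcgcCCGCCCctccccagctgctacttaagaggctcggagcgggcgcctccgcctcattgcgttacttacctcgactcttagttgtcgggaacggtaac
The stretch held 2 GC boxes, and 75.6% of its bases were G or C. Over the 32851 promoter stretches of the same length, 32.7% held at least 1 GC box, 16.7% held at least 2, and the median share of G and C was 52.4%. TATAAA was not found in it on either strand, and 12.4% of the stretches held it. These matches describe the sequence only.

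In TG mice Actb stood at 5.61, 5.38 and 5.004 in the 3 vehicle arrays and at 5.86, 6.03 and 5.68 in the 3 ISO arrays. In DTG mice it stood at 5.64, 5.46 and 5.47 in vehicle and at 5.26, 5.35 and 4.61 in ISO. The ISO arrays were thus all above vehicle in TG mice and all below vehicle in DTG mice, with no overlap in either. For comparison, 44739 probes were well above background on at least 3 arrays and had a value on all 12. Of these, 2.22% were set apart upwards by ISO in TG in this way, 5.9% were set apart downwards in DTG, and 0.199% did both. Since Actb was selected on this contrast, nothing is read from its place among them. The margins were small: the groups were 0.07 apart in TG and 0.12 apart in DTG, on the log2 scale, against a range of 1.41 over the 12 arrays. The highest level was on TG ISO 2 and the lowest on DTG ISO 3.

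**Figure D1:**
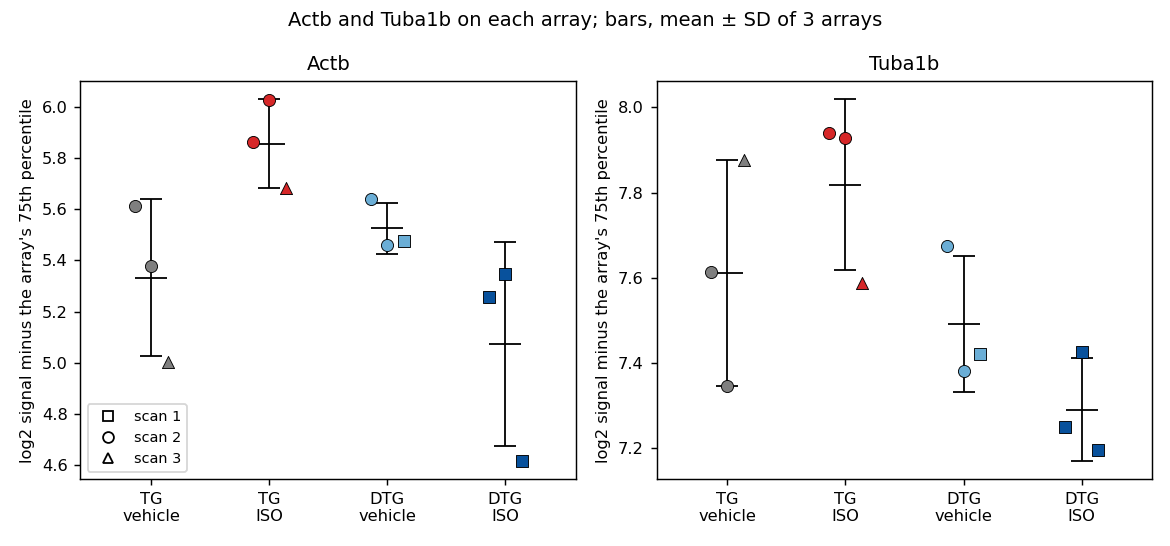
Levels of Actb (left) and Tuba1b (right) on each array, as log2 signal minus the 75th percentile of the array, with the mean ± SD of 3 arrays per group and a marker shape per scan. Actb in TG ISO, at 5.68 to 6.03, lies above TG vehicle, and in DTG ISO, at 4.61 to 5.35, lies below DTG vehicle, while the ISO and vehicle arrays of Tuba1b overlap in both genotypes.

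On the mean, Actb was 0.52 (SE 0.24) higher in TG ISO than in TG vehicle, which is 1.44-fold. In DTG mice ISO was 0.45 (SE 0.24) below vehicle, or 1.37-fold lower. The ISO difference in DTG minus that in TG came to -0.98 (SE 0.34). These are the values that chose the gene. Between genotypes, DTG ISO was 0.78 (SE 0.24) below TG ISO and the 2 groups were 0.34 apart, a separation in this direction that 14.1% of the 44739 probes showed. DTG vehicle was 0.19 (SE 0.24) above TG vehicle and the arrays overlapped. Each group enters more than 1 of these differences, which are therefore not independent.

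In order of level, Actb ran from TG ISO, at 5.86 ± 0.17 (SD, n = 3), through DTG vehicle, at 5.53 ± 0.10, and TG vehicle, at 5.33 ± 0.31, to DTG ISO, at 5.07 ± 0.40. The highest DTG vehicle array, at 5.64, was just under the lowest TG ISO array, at 5.68. DTG vehicle and TG vehicle overlapped, and so did TG vehicle and DTG ISO. The SD within DTG ISO was about as large as the fall between the DTG groups.

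Tuba1b stood at 7.61, 7.34 and 7.88 in TG vehicle and at 7.94, 7.93 and 7.59 in TG ISO. It stood at 7.68, 7.38 and 7.42 in DTG vehicle and at 7.25, 7.43 and 7.19 in DTG ISO. Neither ISO group was set apart from its vehicle group: 1 vehicle array of the TG mice, replicate 3, was nearly as high as the 2 highest TG ISO arrays, and the highest DTG ISO array was level with DTG vehicle 3. The only groups that did not overlap were DTG ISO and TG ISO, which were 0.16 apart, a separation in the direction that 14.1% of the 44739 probes showed.

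The mean of Tuba1b was 0.21 (SE 0.20) higher in TG ISO than in TG vehicle. It was lower in DTG ISO than in DTG vehicle, by 0.20 (SE 0.20). Single arrays moved both: the TG difference was 0.07 when TG vehicle 2 was left out, 0.34 when TG vehicle 3 was, and 0.32 when TG ISO 3 was, and the DTG difference was -0.11 without DTG vehicle 1. The signs were thus those of Actb, and smaller, with each difference about as large as its SE. DTG ISO was 0.53 (SE 0.20) below TG ISO, which is 1.44-fold lower, and DTG vehicle differed from TG vehicle by -0.12 (SE 0.20). The ISO difference in DTG minus that in TG was -0.41 (SE 0.29). From TG ISO, at 7.82 ± 0.20 (SD, n = 3), the means descended through TG vehicle, at 7.61 ± 0.27, and DTG vehicle, at 7.49 ± 0.16, to DTG ISO, at 7.29 ± 0.12, and every pair of neighbours overlapped.

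The 20 spots of a probe show how closely repeated spots of 1 array matched each other. The SD among spots had a median of 0.044 over the 12 arrays for Actb, with a range of 0.027 to 0.087, and a median of 0.049 for Tuba1b, with a range of 0.025 to 0.111. These were below the SD between mice in every group, which was 0.10 to 0.40 for Actb and 0.12 to 0.27 for Tuba1b. Spots marked as outliers were left out, 14 of 240 for Actb and 15 of 240 for Tuba1b, and at least 16 were kept on any array. Mean signals ran from 10045 to 31572 for Actb and from 46900 to 117906 for Tuba1b, over local backgrounds of 23 to 27, and no spot of either was saturated. Spots of 1 array share its RNA, labelling and scan, so their SD covers the noise between spots only. It does not bound the error of the array or of the group. With 1 array per mouse, the SD between mice also holds the error of the array.

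**Figure D2:**
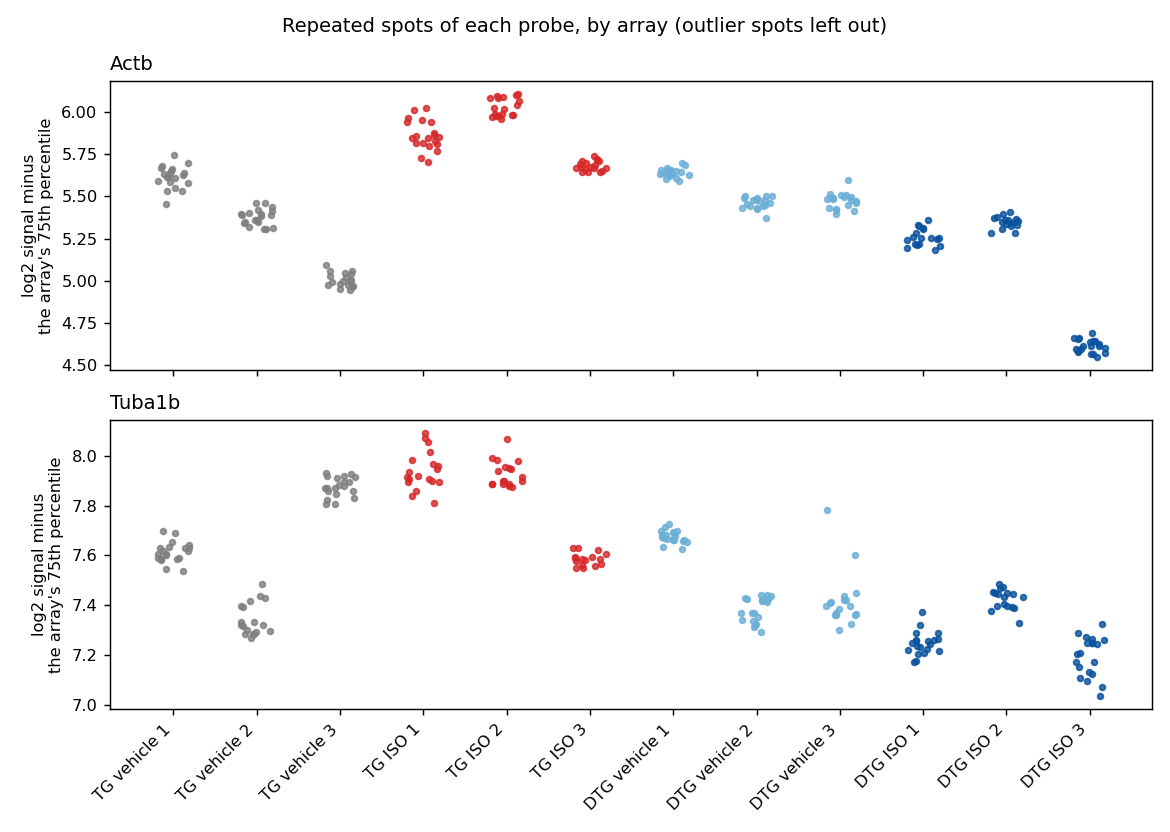
Each spot of the Actb (top) and Tuba1b (bottom) probes that was kept, as log2 signal minus the 75th percentile of its array, for the 12 arrays. The spots of an array cluster tightly, with a median SD of 0.044 for Actb and 0.049 for Tuba1b, next to a range of 1.41 and 0.75 between arrays.

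The difference between the log2 signals of Actb and Tuba1b within an array is left as it is by any scaling that subtracts 1 value per array. On 10 arrays it lay between -2.08 and -1.90, with a mean of -1.98 and an SD of 0.067. Even among these the genes did not always move together. Actb was 5.86 on TG ISO 1 and 6.03 on TG ISO 2, and Tuba1b was 7.94 and 7.93. TG vehicle 3, at -2.87, and DTG ISO 3, at -2.58, stood apart from all 10. Since the 10 were set off by this same value, their small spread follows in part from that choice. On TG vehicle 3 Actb was at its lowest among the TG arrays while Tuba1b was high, and on DTG ISO 3 Actb was at its lowest of all while Tuba1b, also at its lowest, was close to DTG ISO 1. These ranks hold for scaled levels. DTG ISO 3 had the highest 75th percentile, at 540, and the most probes well above background, at 79.4%. Its Gapdh control probes differed least, by 0.33. Before scaling, its Actb signal was 13226, above the 10045 of TG vehicle 3, and its Tuba1b signal was 79073, above the 62808 of DTG ISO 1. Quantile normalization, which does alter Actb minus Tuba1b, put the 10 arrays between -2.19 and -1.87, TG vehicle 3 at -3.06 and DTG ISO 3 at -2.58.

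**Figure D3:**
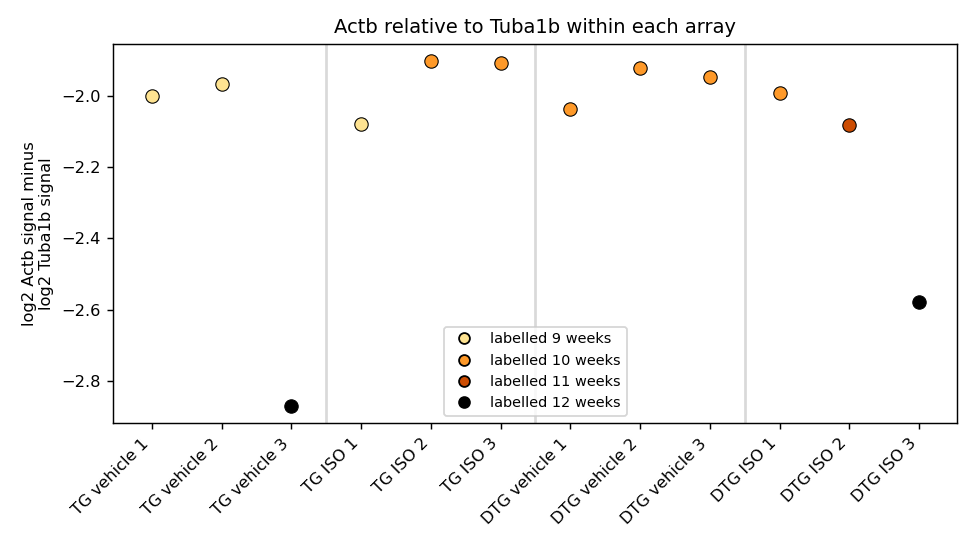
The log2 signal of Actb minus that of Tuba1b on each of the 12 arrays, coloured by the labelled age of the mouse. The arrays lie between -2.08 and -1.90 except TG vehicle 3 and DTG ISO 3, at -2.87 and -2.58, whose mice were the 2 labelled 12 weeks.

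These were the arrays of the 2 mice labelled 12 weeks of age, and they also held the 2 lowest levels of Actb. All mice labelled 9, 10 or 11 weeks had Actb at 5.26 or above. With 2 such mice, 1 in TG vehicle and 1 in DTG ISO, the age and the other properties of these mice and of their arrays cannot be told apart. With labelled age as a covariate, Actb in DTG ISO minus DTG vehicle was -0.26 (SE 0.22), in TG ISO minus TG vehicle 0.46 (SE 0.21), and the difference between genotypes in the ISO response -0.73 (SE 0.32). With all arrays, Actb minus Tuba1b was 0.32 higher in TG ISO than in TG vehicle and differed by -0.25 between DTG ISO and DTG vehicle. Without the 2 arrays, which were noticed for their values, these differences were 0.02 and -0.07. Under quantile normalization they were 0.28 and -0.17 with all arrays and -0.08 and 0.06 without the 2. The mean difference between the genes in their ISO values thus came mostly from 1 array in each genotype, which says nothing of the overlap of their arrays.

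Without those mice, Actb was 0.36 (SE 0.20) higher in TG ISO than in TG vehicle on the mean. In DTG mice the ISO difference was -0.22 (SE 0.20), and the difference between genotypes was -0.58 (SE 0.28). For Tuba1b the corresponding values were 0.34 (SE 0.22), -0.16 (SE 0.22) and -0.49 (SE 0.31). Since the ISO and vehicle arrays of Actb did not overlap in either genotype, leaving arrays out could change only the size of these differences. The mean ISO differences of the 2 genes were then closer to each other, as the choice of arrays by Actb minus Tuba1b favors, while the arrays of Tuba1b overlapped in both genotypes and those of Actb did not.

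Among the other 14 housekeeping probes, that most like Actb over the 12 arrays by Pearson correlation was Tuba1b, at 0.61. It was followed by Ppia, cyclophilin A, a peptidyl-prolyl isomerase, at 0.50, and B2m, the light chain of MHC class I, at 0.45. By Spearman correlation the order differed, with Ppia at 0.70, Tuba1b at 0.68, Rpl13a at 0.62 and B2m at 0.45. The Pearson value for Tuba1b was 0.28 without DTG ISO 3 and TG ISO 2, the arrays farthest from the Actb median, and 0.96 over the 10 arrays of mice younger than 12 weeks. Those 10 leave out the 2 arrays noticed for their Actb minus Tuba1b values, a choice that favors a high correlation of the pair. Without DTG ISO 3 and TG ISO 2 the probe for Gapdh, a glycolytic enzyme, was more like Actb, at 0.54. Over the 10 arrays Gapdh was at -0.37, while Ppia reached 0.92 and Rpl13a 0.89. A few arrays therefore set how alike Actb and Tuba1b appear. These correlations describe arrays that share scans and a common scaling.

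Tuba1b was most like Ppia, with a Pearson correlation of 0.95 and a Spearman correlation of 0.91, then Rpl13a, a protein of the large ribosomal subunit, at 0.91, and B2m, at 0.82. It followed Ppia at 0.92 also without TG ISO 1 and TG ISO 2. All 4 genes were high on TG vehicle 3, TG ISO 1 and TG ISO 2. Tuba1b was 7.88 to 7.94 on those 3 arrays and 7.19 to 7.68 on the other 9, and Ppia was 7.66 to 7.78 against 6.80 to 7.23. Rpl13a was 4.41 to 4.51 against 3.28 to 3.68. These 3 arrays were picked out by their values. In all, 6 of the 15 housekeeping genes lay higher on each of them than on all of the other 9, while Tfrc and Gk lay lower and 7 overlapped. Actb was among the 7, since it was high on TG ISO 1 and TG ISO 2 but not on TG vehicle 3. Over the other 9 arrays the correlation of Tuba1b was 0.90 with Ppia, 0.75 with Rpl13a and 0.51 with B2m, so the likeness to B2m, and less so to Rpl13a, was larger with the 3 arrays than without them. The order also changed, since Actb and Gapdh both reached 0.83 with Tuba1b over these 9, Gapdh from -0.14 over all 12.

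**Figure D4:**
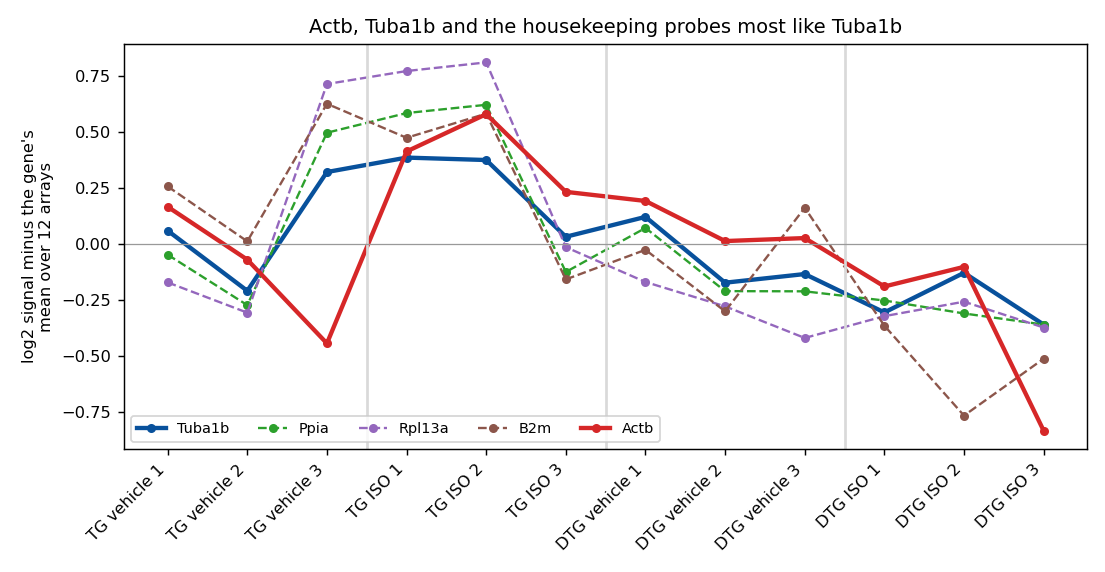
Levels of Actb, Tuba1b and the 3 housekeeping probes most like Tuba1b on each array, as log2 signal minus the mean of the gene over the 12 arrays. Tuba1b, Ppia, Rpl13a and B2m are high together on TG vehicle 3, TG ISO 1 and TG ISO 2, while Actb is low on TG vehicle 3 and lowest on DTG ISO 3.

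Across the 12 arrays Actb covered a range of 1.41 and Tuba1b one of 0.75, against 0.29 for Hprt, an enzyme of purine salvage and the steadiest of the 15, and 2.13 for Tfrc, the transferrin receptor and the most variable. The other 13 housekeeping probes differed after ISO by -0.28 to 0.51 in TG, with a median of 0.00098, and by -0.49 to 0.46 in DTG, with a median of -0.015, while all probes tested had medians of -0.0071 and 0.039. The 0.46 was that of Ldhal6b, which was well above background on only 9 of the 12 arrays. Some came close to Actb or went past it. Gusb, a lysosomal glucuronidase, was 0.51 higher in TG ISO, with overlapping arrays, against 0.52 for Actb. B2m differed by -0.49 in DTG, with its arrays apart, against -0.45 for Actb. None of the 13 lay higher in all TG ISO arrays than in all TG vehicle arrays, where 2.22% of the 44739 probes did. In DTG 2 lay lower in all ISO arrays than in all vehicle arrays, against 5.9% of those probes. Counts among 13 genes are too small to set against these shares. Between DTG ISO and TG ISO, 3 of the 13 lay lower without overlap, against 14.1% of the 44739 probes. Another 3 lay higher, a direction for which no share is given here. In size, 5 differed by more than the -0.78 of Actb. These were Gusb by -1.09, with overlapping arrays, B2m by -0.85, Rpl13a by -0.84, Tfrc by 1.00 and Ldhal6b by 0.79. The value of Ldhal6b rests on a probe that was not well above background on all arrays. Measured against the mean of these 13 genes in place of the 75th percentile, Actb was 0.46 higher after ISO in TG and differed by -0.46 in DTG, and Tuba1b by 0.14 and -0.21.

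Scan and group were entangled in these samples. Scan 2 held 2 arrays of each TG group, and there Actb was 0.45 (SE 0.23) and Tuba1b 0.46 (SE 0.23) higher in ISO than in vehicle. Scan 3 held 1 array of each, and Actb was 0.68 higher in ISO but Tuba1b differed by -0.29. The sign for Tuba1b thus differed between the scans, where scan 3 rested on TG vehicle 3 as its vehicle array. That for Actb could not differ, because its TG ISO and TG vehicle arrays did not overlap. In scan 1, the 3 DTG ISO arrays against the single DTG vehicle array gave -0.40 (SE 0.36) for Actb and -0.13 (SE 0.22) for Tuba1b. In scan 2 DTG vehicle and TG vehicle differed by 0.05 for both genes. DTG ISO and TG ISO were never scanned together, so within a scan that comparison could not be made. With scan as a block, DTG ISO minus TG ISO was -0.83 (SE 0.44) for Actb and -0.41 (SE 0.40) for Tuba1b, and the difference between genotypes in the ISO response was -0.93 (SE 0.41) and -0.34 (SE 0.38). These values rest on DTG vehicle 3, the only array whose group ties scan 1 to the other scans. DTG vehicle minus TG vehicle was then 0.09 (SE 0.28) for Actb, less than without the block. The part of the shift in the Gapdh control probes in these differences was not tested.

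**Figure D5:**
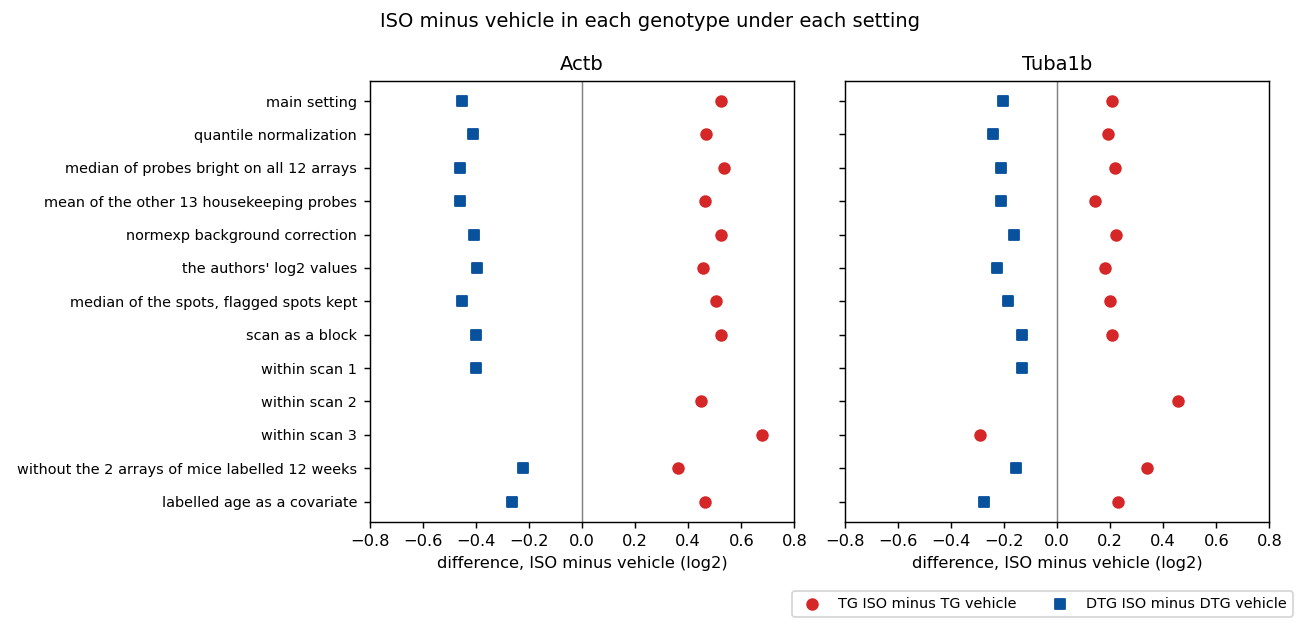
Difference between ISO and vehicle, in log2 units, in TG (circles) and DTG (squares) mice for Actb (left) and Tuba1b (right) in the main setting, under 6 other scalings or summaries, with scan or age in the fit, within single scans and without the mice labelled 12 weeks. In these settings Actb lies from 0.36 to 0.68 in TG and from -0.46 to -0.22 in DTG, and Tuba1b in TG changes sign within scan 3, at -0.29. In the main scaling no subset of arrays could change the sign of Actb, while with normexp its TG arrays overlap.

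With normexp background correction the TG ISO and TG vehicle arrays of Actb overlapped, although the mean difference was still 0.52. In the authors' normalized values the DTG ISO and TG ISO arrays of Tuba1b overlapped, with a mean difference of -0.62.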

How the data were processed

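LVs of 12 mice, 3 per group, were measured on 1-color (Cy3) Agilent arrays, 1 array per mouse. Per the labels, RNA without ribosomal RNA was amplified by random priming. The authors deposited the spot table of each array, made with Agilent Feature Extraction, version 11.0.1.1. The processed signal used is, per the file headers, an intensity from which background was subtracted and spatial trends removed array by array. The authors also deposited log2 values normalized between arrays by a method not given in the sources used here, which served as an alternative.

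Non-control spots, 61200 of 62939 per array after 300 negative probe spots were left out, were log2-transformed and centred on the 75th percentile of their array. Outlier spots were dropped, and spots of a probe were averaged. Probes that Feature Extraction marked as well above background on 3 or more of the 12 arrays, 45154 in all, were fitted with limma 3.58.1 in R 4.3.3, as 4 group means with 8 residual degrees of freedom. The fit was tested on simulated data. Arrays bear no count, and each group had 3. Plots were drawn with matplotlib 3.10.9.

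Transcript accessions in the files matched 15 of 15 housekeeping probes to RefSeq symbols. Lists of other actins, tubulins and cytoskeletal regulators, and of cell type markers, were not analysed here, because the tables used here paired no other probe with a gene. Probe sequences were not used here, so cross-hybridization with close relatives was not tested. The genes named were both members and, for each, the 3 other housekeeping probes most like it by Pearson correlation. Gapdh, Hprt, Tfrc, Gk, Gusb and Ldhal6b were named after their values were seen. The members and lists were chosen with earlier results of these data known.

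Alternatives were quantile normalization, the median of bright probes, the other 13 housekeeping probes, normexp with an offset of 50 on median spot signals, the authors' values, the median of spots, replicate number or scan as a block, sex as a covariate, the compared groups alone, single scans, and each array left out. Leaving out the mice labelled 12 weeks, age as a covariate, the within-array difference under other scalings and only the spots from the upper or lower rows of the array were added after the data were seen.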

Additional observations from a re-analysis of the deposited data

Results flagged for a closer look

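Actb moved in opposite directions after ISO in the 2 genotypes, with every TG ISO array above every TG vehicle array and every DTG ISO array below every DTG vehicle array. Of 44739 probes, 2.22% were set apart upwards by ISO in TG, 5.9% were set apart downwards in DTG, and 0.199% did both. In TG the groups were 0.07 apart, and they overlapped under normexp background correction. The ISO difference in DTG minus that in TG was -0.98 on the log2 scale. The gene was chosen for this pattern, and the difference was not tested.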

How the results depend on the processing

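Among the recomputed differences of Actb and Tuba1b, 3 moved by more than 1 SD between replicates. The replicate block, sex and the compared groups alone cannot move a difference in this balanced design, and leaving out 1 array of 3 can hardly move it that far. The difference between genotypes in the ISO response of Actb was -0.58 without the 2 mice labelled 12 weeks. Tuba1b in TG ISO minus TG vehicle was 0.46 within scan 2 and -0.29 within scan 3. The cause was not tested. In the main scaling no subset of arrays could reverse the ISO differences of Actb, because its ISO and vehicle groups did not overlap. With normexp its TG groups overlapped. The sign also changed for Tuba1b in DTG vehicle minus TG vehicle within scan 2, at 0.05, and without TG vehicle 3, at 0.01, which was also the value without the mice labelled 12 weeks.

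With each array left out in turn, Actb ranged from 0.36 to 0.67 for TG ISO minus TG vehicle, from -0.59 to -0.22 for DTG ISO minus DTG vehicle, from 0.03 to 0.33 for DTG vehicle minus TG vehicle, from -0.92 to -0.55 for DTG ISO minus TG ISO, and from -1.12 to -0.75 for the difference between genotypes. Tuba1b ranged from 0.07 to 0.34, -0.27 to -0.11, -0.25 to 0.01, -0.65 to -0.47 and -0.54 to -0.28 in the same order. The Actb values of -0.22 and 0.03 were without DTG ISO 3 and TG vehicle 3, respectively, and the Tuba1b values of 0.07 and -0.11 without TG vehicle 2 and DTG vehicle 1.

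Replicate numbers did not pair the samples. Deviations of same-numbered arrays correlated at -0.77 to 0.18, over 0.1 in 3 of 18 pairs. With replicate number as a block the differences are fixed by the design, for example -0.98 for the difference between genotypes in Actb, and its SE was 0.31.

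Over all probes, DTG vehicle against TG vehicle gave 2 limma calls, and 0 both without the filter and with probes bright on all 12 arrays. The methods' t-test gave 786, 2405, 1062 and 11919 probes at its own threshold in the 4 comparisons as ordered above for Actb, and 0, 0, 0 and 1056 after Benjamini-Hochberg adjustment, against 0, 0, 2 and 0 by limma.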
